A study of Mus musculus with 4 samples.

Results

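The genes described here mark the endothelial cells that line brain blood vessels and form the blood-brain barrier. They are 10 genes chosen by name, Cldn5, Pecam1, Flt1, Kdr, Tek, Slco1a4, Slc2a1, Abcb1a, Ly6c1 and Vwf, out of 45215 genes in the tables, and all 10 were found, with 53 annotated transcripts out of 128603. RNA abundance was measured in brain from 2 inbred strains and from the F1 hybrids of both cross directions, and every group is labelled wild type. The strains were C57BL/6 (B6), the common laboratory mouse, and CAST/EiJ (CAST), an inbred line of wild-derived Mus musculus castaneus. The hybrid called F1i carries the strain label C57BL/6 x CAST/EiJ and the hybrid called F1r the label CAST/EiJ x C57BL/6; the sources used here do not state which parent was the dam, nor age or sex. Each of the 4 groups was 1 library made from the pooled left hemispheres of 5 mice, although the series design speaks of the whole brain. Replicates are therefore lacking, no test was possible, and differences between animals and between libraries are contained in every value.

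Brain endothelial cells are joined by tight junctions that close the path between cells, so that nutrients have to pass through transporters and many drugs are pumped back into the blood. Growth-factor receptors of the VEGF and angiopoietin systems keep these vessels alive and stable, and the Wnt and beta-catenin pathway maintains the barrier programme. Endothelial cells are a small part of brain tissue, so in a bulk library their transcripts are diluted by those of neurons and glia.

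Levels are given as FPKM, fragments scaled by transcript length and by library size, with the transcripts of at least 200 bases summed per gene. Slc2a1, Ly6c1, Cldn5 and Slco1a4 were the most abundant of the 10 genes, with mean levels of 20.98, 17.97, 15.03 and 8.97 FPKM over the 4 libraries. Abcb1a (3.38 FPKM), Flt1 (3.24) and Pecam1 (2.35) followed, and Vwf (1.26), Tek (1.22) and Kdr (0.822) were near or under 1. The order was nearly the same in each library, with Slco1a4 ranked 4, Pecam1 ranked 7 and Kdr ranked 10 in all 4. Ly6c1 was first in B6, and Slc2a1 was first in CAST, F1i and F1r. Abcb1a and Flt1 changed places between B6 and CAST, as did Vwf and Tek between the parents and the hybrids, so these neighbours had no fixed order. Of the 13768 genes with a mean FPKM of at least 1, 76.3% had a lower mean than Slc2a1, 66.6% than Cldn5, 22.2% than Flt1 and 3.60% than Tek. Kdr did not reach that mean and was left out of the counts below, so that these rest on 9 genes. The 10 genes summed to 77.2 FPKM in B6 and 75.8 in CAST, with 71.4 in F1i and 76.5 in F1r. This near-even sum holds Cldn5 and Ly6c1, which differed between B6 and CAST in opposite directions. In bulk tissue, fewer endothelial cells and less RNA per endothelial cell cannot be told apart.

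**Figure D1:**
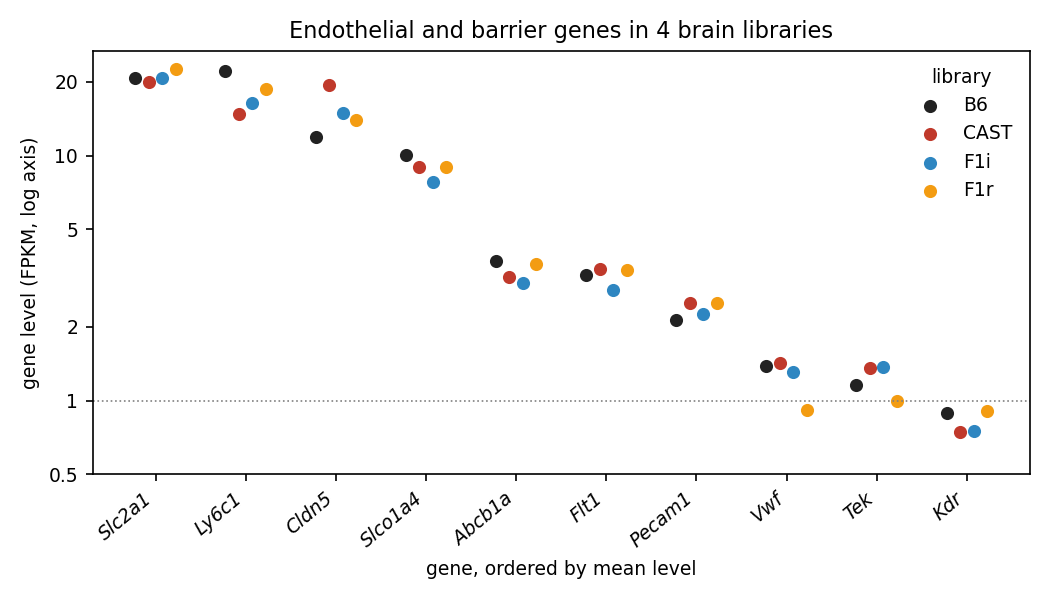
Level of each of the 10 genes (FPKM, log axis) in the B6, CAST, F1i and F1r libraries, with 1 point per library and genes ordered by their mean. Libraries lie close together for Slc2a1 (19.996 to 22.6 FPKM) and farther apart for Ly6c1 (14.8 to 22.1) and Cldn5 (11.9 to 19.3), and Kdr lies under the dotted line at 1 FPKM in all 4.

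A comparison of the parental strains asked how far the barrier genes differ between B6 and CAST. Cldn5 was higher in value in CAST and Ly6c1 lower, and the other members lay close to 0. Differences are given as log2 of FPKM + 1, a scale that understates the change of genes with low values, and a gene was counted as apart at 2-fold or more. None of the 9 members was 2-fold apart, beside 5.12% of all 13768 genes (2.85% higher and 2.27% lower in CAST). Of the 9 members, 5 were above 0 and 4 below, with a median of 0.02 and a range from -0.55 to 0.66. The median of all genes was 0.04, with 55.4% above 0, and 90% of them lay between -0.66 and 0.66. Cldn5 and Ly6c1 thus lay near either edge of that range.

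F1r was compared with F1i to ask what differs between the directions of the cross, since both hybrids have the same autosomal genotypes and all 10 genes lie on autosomes. No member was 2-fold apart, beside 0.508% of all genes. Of the 9 members, 6 were higher in value in F1r and 3 lower, beside 58.1% of all genes higher. The members' median was 0.12 (range -0.27 to 0.21) against 0.03 for all genes. Vwf (-0.27) and Tek (-0.25) were the lowest members, and 5.21% and 6.04% of all genes lay lower than they did. Both values rest on short transcripts found in F1i alone, Vwf-209 (456 bases, an estimated 5 fragments) and Tek-204 (361 bases, 3 fragments). With only transcripts of at least 500 bases, a limit chosen after seeing the data, the differences were -0.03 for Vwf and -0.08 for Tek. The mean of the hybrids was set against the mean of the parents to ask whether hybrids leave the parental level. No member was 2-fold apart, beside 0.392% of all genes, and the members' median was -0.06 (range -0.19 to 0.08) against 0.00 for all genes. Of the members, 2 were above 0 and 7 below, beside 51.0% of all genes above 0.

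Both hybrid values lay between the parental values for 3 of the 9 members, Cldn5, Pecam1 and Ly6c1, beside 41.3% of all genes. Both lay below the parental range for Slco1a4 and Vwf (9.86% of all genes) and above it for no member (8.77%). The other 4 members had the hybrids in different places. With only transcripts of at least 500 bases, both hybrids of Tek also lay below the parental range and those of Slc2a1 above it. No share of all genes under that limit is given here, and the shares above do not apply to it. In the main setting, the members' shares were 33.3% between and 22.2% below. On 9 genes, whether they differ from the shares of all genes was not tested.

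**Figure D2:**
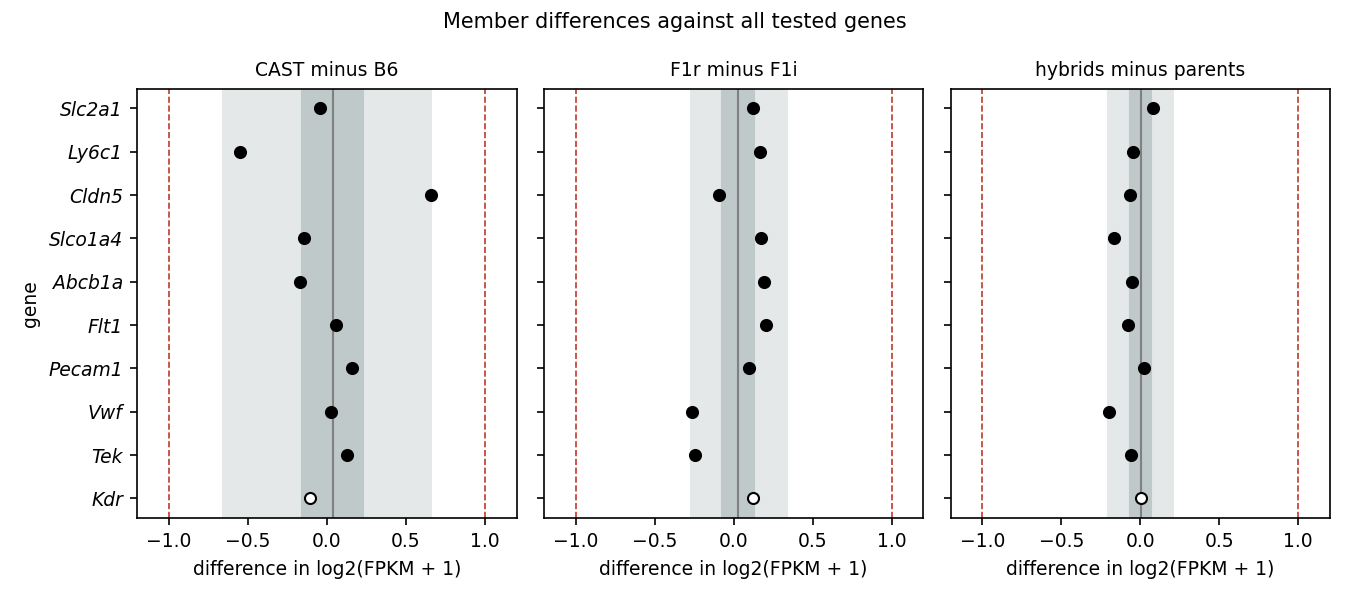
Difference of each gene in log2(FPKM + 1) between CAST and B6 (left), F1r and F1i (middle) and the mean of the hybrids and the mean of the parents (right). Black points are the 9 members in the counts and the open point is Kdr; the light band holds the central 90% of all 13768 genes, the dark band their middle quartiles, the grey line their median and the dashed lines mark 2-fold. In the left panel, Cldn5 (0.66) stands at the upper edge of the light band and Ly6c1 (-0.55) inside it, toward the lower edge (-0.66). No point passes a dashed line.

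Cldn5 encodes claudin-5, the main claudin of the tight junctions between brain endothelial cells. It lies on chromosome 16 (18776847 to 18778260, plus strand, GRCm38) and has 1 annotated transcript with 654 coding bases. Its level was 11.9 FPKM in B6 and 19.3 in CAST, with 14.9 in F1i and 13.97 in F1r. CAST was the highest library and B6 the lowest, with both hybrids between them. The CAST level was 1.63 times that of B6, a log2 difference of 0.66, and 95.1% of all genes had a lower difference. With the B6 level set to 0 and the CAST level to 1, F1i lay at 0.410 and F1r at 0.281. F1r and F1i differed by -0.09, which became 0.03 when every library was scaled to the same total FPKM. None of the 31-base stretches of Cldn5 recurs in the transcripts of another gene.

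Pecam1 encodes the adhesion molecule CD31, found at endothelial cell contacts and on platelets and some leukocytes. On chromosome 11 (106654217 to 106750628, minus strand), it stood at 2.14 FPKM in B6 and 2.50 in CAST, with 2.26 in F1i and 2.49 in F1r. The 4 libraries spanned 1.17-fold, so at the gene level they were nearly equal. CAST minus B6 was 0.16 and F1r minus F1i 0.10.

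The transcripts of Pecam1 were less alike than the gene. Among other stretches, they differ in the alternative exons of the cytoplasmic tail, which carries a tyrosine-based inhibitory motif and couples the receptor to phosphatases. Pecam1-202 (2148 coding bases) holds the 57-base coding exon 14, Pecam1-203 (2091) lacks it, and Pecam1-204 (2181) holds it together with the 23-base exon 15. The full transcripts are 3283, 3233 and 3441 bases long, so they also differ outside these exons. The coding ends of the 3 transcripts are shown because the shares of these transcripts differed between libraries. These coding ends run from the last bases of coding exon 13 to the end of the coding sequence, with exons 14 and 15 in capitals. The sequences are those of the GENCODE M21 transcripts, from the minus strand of chr11:106655146-106679568 (Pecam1-202 and Pecam1-203) and chr11:106655136-106679568 (Pecam1-204).
Pecam1-202: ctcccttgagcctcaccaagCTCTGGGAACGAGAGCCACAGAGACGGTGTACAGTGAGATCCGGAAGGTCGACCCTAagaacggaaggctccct
Pecam1-203: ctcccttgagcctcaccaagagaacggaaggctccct
Pecam1-204: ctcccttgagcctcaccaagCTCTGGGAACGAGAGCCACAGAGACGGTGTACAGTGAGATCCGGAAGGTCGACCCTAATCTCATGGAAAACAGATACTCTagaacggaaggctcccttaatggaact

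Pecam1-202 had 0.827 FPKM in B6 and 0.787 in CAST, with 0.101 in F1i and 0.455 in F1r. Pecam1-203, in that order of libraries, was at 0.843, 0.879, 0.761 and 1.58 FPKM. Pecam1-204, the form with both exons, was at 0.103, 0.807, 1.12 and 0.419. It was the lowest of the 3 forms in B6 and the highest in F1i. As a share of the gene's FPKM, Pecam1-204 took 4.82% in B6 and 32.3% in CAST, with 49.5% in F1i and 16.8% in F1r, and Pecam1-203 took 39.5%, 35.2%, 33.7% and 63.2%. The F1i share of Pecam1-204 lay above both parents and the F1r share between them. These 3 forms rest on an estimated 11 to 157 fragments per library, and the forms overlap over most of their length, so the assignment of fragments to each is uncertain. Whether the shares reflect the alternative exons or other differences between the forms was not tested.

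Transcript shares could be compared for 6 members, those with at least 2 transcripts and a gene level of at least 1 FPKM in every library. A share differed by at least 20 percentage points between CAST and B6 for Ly6c1 and Pecam1, beside 13.4% of the 10196 genes compared. Between F1r and F1i it did so for Pecam1, beside 7.38%. The largest shift of Pecam1 was 27.5 points between CAST and B6 and 32.7 points between the hybrids, both in Pecam1-204. The median of the largest shift over all genes was 7.42 points between CAST and B6 and 5.57 between the hybrids. For Ly6c1 the largest shift was 41.4 points between CAST and B6 and 5.24 between the hybrids. The largest shifts of Slco1a4, Flt1, Slc2a1 and Abcb1a between CAST and B6 were 11.3, 9.64, 8.27 and 0 points.

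Ly6c1 encodes a small GPI-anchored surface protein of the Ly6 family, carried by brain capillary endothelium and by monocytes. The gene, on chromosome 15 (75044018 to 75048830, minus strand), had 22.1 FPKM in B6 and 14.8 in CAST, with 16.4 in F1i and 18.6 in F1r. B6 was the highest and CAST the lowest library, with both hybrids between them. The CAST level was 0.669 times that of B6 (log2 difference -0.55), and 6.74% of all genes had a lower difference. F1i lay at 0.769 and F1r at 0.471 on the same scale.

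Of the Ly6c1 transcripts, Ly6c1-201 had 19.1 FPKM in B6 and 6.69 in CAST, with 12.8 in F1i and 13.6 in F1r. Ly6c1-202 went the other way, with 1.53, 6.28, 2.59 and 2.65 FPKM. The 2 forms have the same 3 coding exons (393 coding bases) and differ by 15 bases at the start of the second exon, 17 at the start of the first and 4 at the 3′ end, so few fragments can separate them. Among the 7 members whose leading transcript reached a mean of 1 FPKM, Ly6c1-201 was the only one to pass the 2-fold rule between CAST and B6, with a log2 difference of -1.39. Estimated fragments of Ly6c1-201 were 704 in B6 and 173 in CAST, and those of Ly6c1-202 were 56 and 161.

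Ly6c1 has close relatives beside it on chromosome 15, and 46.8% of its 31-base stretches recur in the transcripts of other genes, 33.0% in Ly6c2 and 15.7% in Ly6a. Ly6c1 and Ly6c2 differ at 9 of 393 coding bases (97.7% identity). Of these 9, 6 are in coding exon 1, none in coding exon 2 and 3 in coding exon 3. Exons 2 and 3 are shown to make plain how little sequence separates the genes; capitals in exon 3 mark the bases that differ. They are from GENCODE M21 transcripts on the minus strand of GRCm38, at chr15:75047353-75047469 and chr15:75045405-75045610 for Ly6c1 and at chr15:75110511-75110627 and chr15:75108546-75108751 for Ly6c2.
Ly6c1, coding exon 2: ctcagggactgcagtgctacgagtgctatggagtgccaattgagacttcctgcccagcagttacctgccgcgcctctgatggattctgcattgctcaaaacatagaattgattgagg
Ly6c2, coding exon 2: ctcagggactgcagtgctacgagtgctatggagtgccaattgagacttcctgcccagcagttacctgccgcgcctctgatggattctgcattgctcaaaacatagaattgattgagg
Ly6c1, coding exon 3: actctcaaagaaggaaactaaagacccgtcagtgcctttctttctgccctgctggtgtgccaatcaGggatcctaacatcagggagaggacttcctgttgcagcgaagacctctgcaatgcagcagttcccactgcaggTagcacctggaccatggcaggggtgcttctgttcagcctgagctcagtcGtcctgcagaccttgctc
Ly6c2, coding exon 3: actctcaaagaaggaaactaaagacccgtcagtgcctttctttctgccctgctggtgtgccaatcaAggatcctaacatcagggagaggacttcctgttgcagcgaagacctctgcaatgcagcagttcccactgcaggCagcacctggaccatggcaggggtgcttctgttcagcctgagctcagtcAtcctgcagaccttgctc

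The 2 relatives moved in opposite directions between the strains. Ly6c2, known from monocytes, had 0.182 FPKM in B6 and 3.96 in CAST, with 3.15 in F1i and 2.33 in F1r, a log2 difference of 2.07 between CAST and B6. Ly6a, which encodes Sca-1 of brain endothelium and stem cells, was at 13.2, 2.04, 7.05 and 6.28 FPKM, a difference of -2.23. Ly6c2 thus passed the 2-fold rule upward and Ly6a downward, with both hybrids between the parents for each. Ly6a shares 31.9% and Ly6c2 23.7% of its 31-base stretches with other genes. Summed with Ly6c2, Ly6c1 came to 22.2 FPKM in B6 and 18.7 in CAST, with 19.6 in F1i and 20.95 in F1r. The difference between CAST and B6 then went from -0.55 to -0.24, and with Ly6a added it was -0.75. Whether reads carrying CAST alleles were placed among these genes as B6 reads were was not tested.

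**Figure D3:**
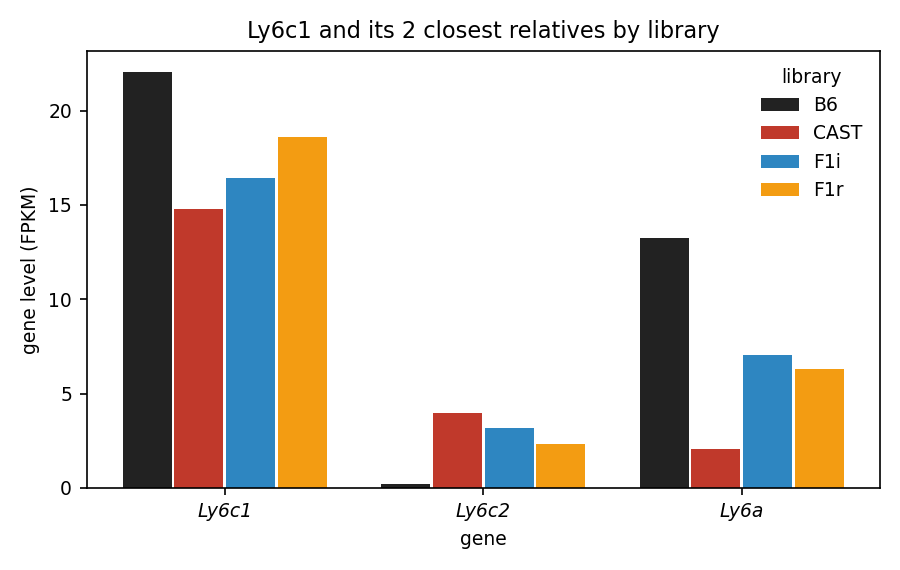
Level (FPKM, bars from 0) of Ly6c1, Ly6c2 and Ly6a in the 4 libraries. Ly6c1 and Ly6a are highest in B6 (22.1 and 13.2 FPKM) and lowest in CAST (14.8 and 2.04), Ly6c2 is lowest in B6 (0.182) and highest in CAST (3.96), and both hybrids lie between the parents for all 3.

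Flt1, Kdr and Tek are receptor tyrosine kinases of the vessel wall. Flt1 encodes VEGF receptor 1, which binds VEGF-A, VEGF-B and placental growth factor and acts largely as a trap. On chromosome 5 (147561604 to 147726011, minus strand), it stood at 3.26 FPKM in B6 and 3.43 in CAST, with 2.83 in F1i and 3.42 in F1r. F1i was the lowest and the other 3 were nearly equal, so CAST minus B6 was 0.06 and F1r minus F1i 0.21.

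Flt1 makes a membrane form and a soluble form, which keeps the ligand-binding part and lacks the kinase. Flt1-202, the membrane form, has 30 coding exons and 3999 coding bases. Flt1-203, the soluble form, has 13 coding exons and 2064 coding bases, of which the last 92 are read past the last shared exon into the following intron. The point where they part is shown, with the final 30 bases of the last shared exon in lower case and what follows in each form in capitals. The capitals are from the minus strand of GRCm38 at chr5:147634434-147634523 and chr5:147639133-147639224, from GENCODE M21 transcripts.
Flt1-202, membrane form: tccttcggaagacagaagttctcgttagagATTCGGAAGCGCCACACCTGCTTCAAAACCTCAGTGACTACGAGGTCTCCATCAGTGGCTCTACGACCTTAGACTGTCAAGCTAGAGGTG
Flt1-203, soluble form: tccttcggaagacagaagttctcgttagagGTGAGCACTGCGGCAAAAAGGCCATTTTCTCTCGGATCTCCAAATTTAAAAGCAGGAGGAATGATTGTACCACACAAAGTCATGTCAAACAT

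The membrane form had 1.89 FPKM in B6 and 1.66 in CAST, with 1.66 in F1i and 1.95 in F1r. The soluble form was at 1.32, 1.71, 1.11 and 1.39 FPKM. CAST was the highest library for the soluble form and tied for the lowest with F1i for the membrane form. The soluble form took 40.6% of the gene's FPKM in B6 and 49.8% in CAST, with 39.3% in F1i and 40.6% in F1r. The soluble form's share was 9.19 points higher in CAST than in B6 and 1.30 points higher in F1r than in F1i, and no share of the gene shifted by 20 points. By FPKM, CAST was therefore the only library in which the soluble form exceeded the membrane form, by a small margin. These CAST values rest on an estimated 330 fragments for the soluble form and 351 for the membrane form, so their order is uncertain.

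Kdr encodes VEGF receptor 2, the main signalling receptor for VEGF-A in endothelial cells. On chromosome 5 (75932827 to 75978458, minus strand), it had 0.886 FPKM in B6 and 0.747 in CAST, with 0.748 in F1i and 0.905 in F1r. The differences were -0.11 for CAST minus B6 and 0.12 for F1r minus F1i, at an estimated 132 to 229 fragments per library. These values lay under the expression filter and were in no count.

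Tek encodes TIE2, the receptor for the angiopoietins. The gene is on chromosome 4 (94739289 to 94874976, plus strand) and had 1.16 FPKM in B6 and 1.36 in CAST, with 1.36 in F1i and 0.992 in F1r. F1r was the lowest library. The F1i value includes 0.259 FPKM of Tek-204, a 361-base transcript listed at 0 in the other libraries, and with transcripts of at least 500 bases F1i was at 1.11 FPKM, below B6. The hybrids minus the parents then came to -0.14 instead of -0.06. The main form, Tek-203, was at 0.748, 0.961, 0.646 and 0.463 FPKM, also with F1r lowest, at an estimated 137 fragments for the whole gene in F1r.

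Slc2a1 encodes GLUT1, which carries glucose across the barrier and is also made by astrocytes. On chromosome 4 (119108711 to 119137983, plus strand), it had 20.7 FPKM in B6 and 19.996 in CAST, with 20.7 in F1i and 22.6 in F1r. It was the most even of the 10 genes, with 1.13-fold between the highest and the lowest library. CAST minus B6 was -0.05, which became 0.12 with libraries scaled to the same total FPKM, and F1r minus F1i was 0.12. Slc2a1-201, the coding form, held 83.5% of the gene in B6 and 75.2% in CAST, with 87.4% in F1i and 84.9% in F1r. Slc2a1-204, annotated as a target of nonsense-mediated decay, lacks a 163-base exon. It had 3.18 FPKM in B6 and 4.56 in CAST, with 2.59 in F1i and 3.17 in F1r, highest in CAST. Overlapping antisense genes Gm12868 and Gm12867 were listed at 0 in all libraries.

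Slco1a4 encodes the organic anion transporter OATP1A4 of brain endothelium. On chromosome 6 (141805440 to 141856199, minus strand), it had 10.1 FPKM in B6 and 9.01 in CAST, with 7.83 in F1i and 8.95 in F1r. Both hybrids lay below both parents, F1r only slightly. CAST minus B6 was -0.15 and the hybrids minus the parents -0.17; the first was 0.01 with libraries scaled to the same total FPKM. Much of the level came from Slco1a4-202, a 622-base transcript that holds 419 coding bases, at 4.69, 3.17, 3.67 and 4.62 FPKM. The full-length Slco1a4-203, with 2010 coding bases, was at 4.47, 4.83, 3.83 and 3.83 FPKM. By estimated fragments, Slco1a4-203 had 745, 567, 507 and 453 and Slco1a4-202 had 127, 60, 79 and 89, so the full-length form held most of the reads. For Slco1a4-203 alone CAST was higher than B6, at 0.09 on the log2 scale.

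Abcb1a encodes the P-glycoprotein pump that returns many drugs to the blood. It lies on chromosome 5 (8660077 to 8748575, plus strand) and had 3.72 FPKM in B6 and 3.19 in CAST, with 3.02 in F1i and 3.59 in F1r. B6 and F1r were the higher pair and CAST and F1i the lower, with a highest to lowest ratio of 1.23. CAST minus B6 was -0.17 and F1r minus F1i 0.19. Abcb1a shares 23.3% of its 31-base stretches with other genes, 21.7% with its close copy Abcb1b. Abcb1b was at 1.18, 0.727, 1.08 and 0.790 FPKM, and with it added the CAST minus B6 difference was -0.26. The overlapping genes Gm42686 and Gm42684 were at no more than 0.0146 and 0.0518 FPKM.

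Vwf encodes von Willebrand factor, the clotting protein stored in endothelial granules and platelets. On chromosome 6 (125546774 to 125686679, plus strand), it had 1.39 FPKM in B6 and 1.43 in CAST, with 1.31 in F1i and 0.918 in F1r. F1r was lowest and the other 3 were close, with a ratio of 1.55 between the highest and the lowest library. CAST minus B6 was 0.02, which became -0.01 under median-ratio scaling. The full-length Vwf-203, with 8439 coding bases, was at 1.07, 1.14, 0.713 and 0.655 FPKM. By this form both hybrids were lower than both parents and close to each other, with a log2 difference of -0.05 between F1r and F1i instead of -0.27. The gene value in F1i includes 0.340 FPKM of Vwf-209, a 456-base transcript with an estimated 5 fragments that was listed at 0 in the other libraries. With transcripts of at least 500 bases F1i was at 0.965 FPKM, and the hybrids minus the parents came to -0.31 instead of -0.19.

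Other genes of brain vessels were taken from 10 lists, 109 genes beside the members, of which 72 passed the filter. Of these 72, only Ly6a was 2-fold apart between CAST and B6, and none in the other 2 comparisons, beside 5.12%, 0.508% and 0.392% of all genes. Their medians were -0.02 (32 above 0, 40 below), 0.02 (42 and 30) and -0.07 (21 and 51), and the members' were 0.02, 0.12 and -0.06. Of all genes, 55.4%, 58.1% and 51.0% were above 0 in the 3 comparisons. Beside Cldn5, the junction list had 11 of 14 genes tested, members included, with 4 above 0 and 7 below in CAST against B6. Tjp1, the scaffold ZO-1, had 22.6 FPKM in B6 and 27.7 in CAST, with 20.9 in F1i and 24.6 in F1r, and the claudin Cldn12 was at 21.1, 25.9, 22.1 and 23.5. Jam2, among the 7 below 0, was at 8.52, 7.67, 7.89 and 8.34. Beside Flt1 and Tek, the VEGF and angiopoietin list had 7 of 9 tested genes above 0, again with the members counted in. Vegfa, the ligand of Flt1 and Kdr, had 15.2 FPKM in B6 and 25.1 in CAST, with 15.2 in F1i and 16.2 in F1r, a difference of 0.69 that did not pass the rule. Vegfb, a ligand of Flt1, was even, at 23.2, 23.5, 24.3 and 24.4. Vegfa was thus higher in value in CAST alone, with both hybrids near B6.

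Beside Slc2a1, Slco1a4 and Abcb1a, the transporter list had 5 genes above 0 and 14 below in CAST against B6, out of 19 tested, with a median of -0.15. Slc3a2, the heavy chain of amino acid transporters, was at 39.4, 38.4, 35.0 and 36.4 FPKM, and the transferrin receptor Tfrc at 23.6, 20.9, 18.3 and 18.3. Lrp1, among the 5 above 0, was at 30.4, 34.6, 30.6 and 33.6. Abcg2, an efflux pump like Abcb1a, and Mfsd2a, a lipid transporter of the barrier, were singled out after their values were seen. Abcg2 was at 6.52, 3.11, 4.18 and 3.43 FPKM, a difference between CAST and B6 of -0.87 that misses the rule only through the added 1. Mfsd2a was at 8.72, 13.9, 12.9 and 13.3, a difference of 0.62 in the opposite direction. Beside Pecam1 and Ly6c1, the identity list had 5 above 0 and 9 below, and beside Vwf the haemostasis list had 3 and 4. The Wnt and beta-catenin list had 13 of 18 genes tested, with 8 above 0 and 5 below. Its beta-catenin gene Ctnnb1 was at 168, 181, 179 and 181 FPKM, while Fzd6 was listed at 0 in all libraries. Of the closest relatives by name, Slc2a4 (the insulin-regulated GLUT4) was the third to pass the rule in CAST against B6, with 1.04 FPKM in B6 and 3.12 in CAST, with 2.01 in F1i and 2.76 in F1r. The neuronal glucose transporter Slc2a3 was at 40.7, 37.1, 40.1 and 41.2 FPKM.

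Markers of other cells differed between the same libraries, and their part in the members' values was not tested. Depth, with B6 as 1, was estimated at 0.703 for CAST, 0.794 for F1i and 0.708 for F1r, and neuron markers were abundant in every library (Snap25 at 499 to 635 FPKM). Summed pericyte and smooth muscle markers were 53.4 FPKM in B6 and 32.7 in CAST, with 35.3 in F1i and 35.0 in F1r, with 1 of 7 tested genes (Vtn, 27.2 in B6 and 13.02 in CAST) 2-fold lower in CAST. In the same order of libraries, fibroblast markers summed to 52.9, 36.2, 40.3 and 39.6 FPKM (0 of 8 genes 2-fold apart) and microglial markers to 93.2, 69.4, 83.5 and 71.4 (0 of 7). Red cell markers were at 514, 338, 505 and 320 FPKM (2 of 5, Hba-a2 and Hbb-bt). In CAST against B6, 4 of these 5 genes were below 0 and 1 above, Hba-a1, at 107 FPKM in B6 and 137 in CAST. Choroid plexus and ependyma markers were at 651, 400, 658 and 551 (1 of 7, Kl), of which Ttr alone held 621, 381, 636 and 530. Oligodendrocyte markers were at 1876, 1168, 1595 and 1454 (1 of 5, Mobp). Astrocyte sums were 948, 864, 867 and 835 and neuron sums 1246, 1132, 1228 and 1314, with no gene of either list 2-fold apart. Platelet sums were 19.5, 13.6, 15.7 and 18.0, and lymphatic endothelium sums 4.01, 3.60, 3.62 and 4.28, with Ccl21a listed at 0 in all 4 libraries. Of the platelet sum, Gp1bb alone held 16.8, 10.99, 12.6 and 14.8 FPKM, while Pf4 was at 1.28 in B6 and 1.68 in CAST. Of the lymphatic sum, Prox1 alone held 3.11, 3.13, 3.08 and 3.37 FPKM. These sums thus mostly reflect Gp1bb and Prox1, and whether they follow the named cells was not tested. The endothelial identity and adhesion list, which includes Pecam1, Ly6c1, Ly6a and Ly6e, summed to 169, 137, 142 and 149 FPKM. Ly6e was the largest single part of this sum, at 71.0, 56.0, 61.0 and 62.8 FPKM. Ly6e, Ly6a and Ly6c1 were all lower in CAST than in B6 and weigh heavily in the sum. Of the 14 tested genes of the list, 5 were above 0 and 9 below in CAST against B6.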

How the data were processed

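Brain RNA of B6, CAST, F1i and F1r mice was measured in 1 library per group, made with a strand-specific kit per the labels' protocols. The values deposited by the authors were FPKM of single transcripts, without read counts. The submitters' processing notes list Cufflinks 2.2.1, Cuffdiff, HISAT2, Trimmomatic 0.36 and bcl2fastq 2.20, with build mm9. The tables nevertheless hold GRCm38 positions, since 99.5% of their transcripts were in GENCODE M21 and 97.2% of those kept both ends. How reads with several matches or CAST alleles were treated, and whether fragments were counted by strand, is not given in the sources used here.

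Transcripts of at least 200 bases were summed per gene, and genes with a mean FPKM of at least 1 were compared on log2(FPKM + 1). With 1 library per group no test was made, and genes at least 2-fold apart were counted. Low FPKM of single-transcript genes of at least 2000 bases sat at the worth of 1 fragment, which gave the relative depth and an estimate of fragments, from 132 to 2768 per member and library (counting error 8.70% to 1.90%, no biological error). The estimate uses the full length and is too high for short transcripts. Recurring sequence was counted in 31-base words of GENCODE M21 transcripts.

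The members, the vascular and marker lists and the comparisons were chosen with earlier results of these data known. The text names every member, the listed relatives, from each vascular list the genes 2-fold apart and up to 4 with the highest mean, and from each marker list those 2-fold apart and up to 2 with the highest mean; not all of them are printed. Fzd6 and Ccl21a were named because they were at 0, and Abcg2 and Mfsd2a after their values were seen. Alternatives were another pseudocount, filters, 2 scalings, all transcripts, the leading transcript, a widened parental range and other share limits, and sums with relatives and a minimum of 500 bases were added after seeing the data. The 2-fold and share limits were run on simulated data with little noise and planted changes larger than those limits. Level changes were planted only in genes with a mean FPKM of at least 5. That checks the code and says nothing of how reliable the real values are. The fragment estimate and the hybrid position were not simulated. Python 3.11.15, numpy 2.4.6, pandas 2.3.3 and matplotlib 3.10.9 were used.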

Additional observations from a re-analysis of the deposited data

How the results depend on the processing

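No paired analysis was possible because each group is 1 library without replicate numbers, and for the same reason no library could be left out of a group. Settings that only filter genes cannot move a member's own value, and summing all transcripts moved none. Among the 98 other values of a tested member that a setting did change, 97 kept their side of the 2-fold rule. The exception was Ly6c1 between CAST and B6 with its leading transcript alone (-1.39). In that setting 1 of 7 members was apart, beside 768 of 13162 genes, and the member median was -0.12. With a pseudocount of 0.1, 1069 genes were apart between CAST and B6, 185 between F1r and F1i and 141 between hybrids and parents, against 705, 70 and 54. With a mean FPKM of at least 5 these were 373 and 34 for the first and second comparison, and the member median for CAST minus B6 was -0.10 on 4 members. With all transcripts summed, 224 genes were apart between F1r and F1i and 246 between hybrids and parents. With transcripts of at least 500 bases, added after seeing the data, 36 and 30 genes were apart in these comparisons. Scaling to a common total moved the median of all genes from 0.04 to 0.19 for CAST minus B6 and from 0.03 to 0.15 for F1r minus F1i, and the member medians to 0.12 and 0.25. Signs then changed for Slco1a4 and Slc2a1 (CAST minus B6) and Cldn5 (F1r minus F1i). Median-ratio scaling changed the sign of Vwf between CAST and B6, and leading transcripts alone that of Flt1 and Slco1a4 there and of Flt1, Kdr and Ly6c1 between hybrids and parents. With the parental range widened by 10%, 5 of 9 members and 11039 of 13768 genes had both hybrids within it, against 3 members and 5682 genes before. With a share limit of 10 points, 3841 genes were shifted between CAST and B6 and 2704 between the hybrids. With a gene level of at least 5 FPKM in each library, 564 and 192 genes were shifted, with 1 and 0 members. Fewer genes were compared under that limit, and their number is not given here, so these counts cannot be read as shares. Causes of these changes were not tested.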

Other observations

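Lists of vessel segments held few tested genes, none of them 2-fold apart on the log2(FPKM + 1) scale in any of the 3 comparisons. Of the arterial list, 4 of 8 genes were tested, with a median of -0.18 for CAST minus B6. Gkn3, an arterial marker, had 2.73 FPKM in B6 and 1.34 in CAST, with 1.64 in F1i and 1.25 in F1r. Its CAST and B6 values are over 2-fold apart as FPKM, and the added 1 brings the log2 difference to -0.67. Efnb2, the arterial ephrin-B2 gene, was at 9.79, 10.6, 10.2 and 11.4. All 6 capillary genes were tested, with a median of 0.07. Car4, a capillary carbonic anhydrase, was at 13.4, 15.3, 13.4 and 13.8 FPKM. Spock2, a proteoglycan gene also made by neurons, was at 114, 76.5, 107 and 102. Of the venous list, 4 of 7 genes were tested, with a median of 0.00, and the venous receptor Ackr1 was at 9.33, 7.49, 9.02 and 10.3 FPKM. Plvap, a marker of fenestrated vessels such as those of the choroid plexus, had 1.97 FPKM in B6 and 3.03 in CAST, with 3.08 in F1i and 2.37 in F1r. No order among segments can be read from these values, which come from single libraries.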
